A study of Rattus norvegicus with 6 samples.

Results

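The cytosolic ribosomal proteins are the proteins that, with the ribosomal RNAs, build the small and large subunits of the ribosome that translates nuclear-encoded mRNAs. They were taken as the rows of the expression table whose gene symbol begins with Rpl or Rps and a number, or is Rplp0, Rplp1, Rplp2 or Rpsa, leaving out the ribosomal S6 kinases (Rps6k) and symbols marked as pseudogenes. This gave 91 of the 14607 rows, 54 named for the large subunit and 37 for the small one, under 86 distinct symbols. By a list of core symbols, 78 rows are genes of the core ribosome and 12 are paralogues or ribosomal protein-like copies. The remaining 1, Rps19bp1, is a protein that binds Rps19 and is not itself a ribosomal protein.

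Each subunit holds 1 copy of nearly every ribosomal protein, and cells keep the mRNAs of these proteins at high and matched levels. Most of these mRNAs begin with a 5′ terminal oligopyrimidine (TOP) tract, a C followed by a run of pyrimidines, through which the mTORC1 kinase pathway sets how strongly they are translated. The level of a ribosomal protein mRNA is therefore no measure of the rate at which its protein is made.

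Freshly isolated cells of the rat brain cortex were profiled by RNA-Seq in 6 samples, 3 of vascular smooth muscle cells (VSMCs), the contractile cells of arterioles, and 3 of mid-capillary pericytes (mcPCs), the mural cells of capillaries. The animals were male Sprague-Dawley rats of 4 to 5 weeks, and no group carried a transgene or received a treatment. The samples came from 3 isolations of pooled cortices, and by the sample titles each isolation gave 1 VSMC and 1 mcPC sample. The VSMCs were sorted positively, by lectin binding, from arterioles held back by a filter, whereas the mcPCs were the unlabelled cells left when endothelial, microglial, astroglial and oligodendroglial cells had been removed from the capillary fraction, so that any cell without those labels could remain in them. RNA integrity numbers were between 6.40 and 8.50, and depth came to 61978100 assigned reads per VSMC sample and 47990200 per mcPC sample. The table used here gives 1 mean per cell type over the 3 samples. No spread between samples could therefore be computed, no difference below was tested, and a ratio is a description of these means.

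The markers of both labelled cell types were examined first, with 2-fold differences counted on the mean normalized counts and levels given as TPM. All 14 smooth muscle markers were at least 2-fold higher in VSMCs, among them Tagln (19824 against 22.7 TPM, the length-scaled abundance that sums to the same total in every library), Acta2 (17233 against 20.2 TPM) and Myl9 (11235 against 197 TPM), which make the actin-based contractile apparatus. Of the 12 pericyte markers, 9 were at least 2-fold higher in mcPCs; Vtn, which codes for vitronectin, had 484 TPM in VSMCs and 1531 in mcPCs, but Rgs5 (6298 against 1703 TPM) and Notch3 (1198 against 137 TPM) were also abundant in VSMCs. Markers of other cells were present as well. The erythrocyte list, led by the alpha globin gene Hba-a1 (3838 against 286193 TPM), summed to 0.729% of all TPM in VSMCs and 54.4% in mcPCs, and 20 of its 22 measured genes reached 2-fold in favour of mcPCs. With 4 further rows described as haemoglobin the shares were 0.881% and 66.9%. All 10 measured leukocyte markers of 24 listed reached it too, with a summed level of 2.75 TPM in VSMCs and 261 in mcPCs and with Lyz2, the lysozyme gene of myeloid cells, as the most abundant. So did 17 of 21 endothelial markers (summed 809 and 716 TPM, most abundant Esam) and 9 of 10 neuronal ones (14.6 and 38.8 TPM, Tubb3). The same held for 5 of 6 astrocytic (14.6 and 22.5 TPM, Aldoc) and 6 of 7 oligodendroglial markers (20.3 and 19.4 TPM, Cnp). Esam and Aldoc themselves stayed under 2-fold, with log2 ratios of 0.43 and 0.16. Esam, with 487 and 184 TPM, made up much of the endothelial sum. Cldn5, which passed 2-fold, had 0.643 and 15.4 TPM, and 2 of the 21 endothelial markers were lower in mcPCs. On TPM as it stands fewer passed 2-fold towards mcPCs, namely 6 pericyte, 19 erythrocyte, 14 endothelial, 7 neuronal, 4 astrocytic and 1 oligodendroglial, while the leukocyte count was again 10. Several defining markers have no row in the table, among them Pecam1 of endothelial cells, Cd3e of T cells, Rbfox3 of neurons and Mag of oligodendrocytes. A row needed 1 or more reads in every sample, so a missing row does not show absence from both cell types. The part of these other cells in the ribosomal protein values was not tested.

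To show the TOP tract in these genes, the first bases of their promoter entries were read from RefSeq, which matched 70 of the 91 rows and 67 genes (rat build GRCr8, whereas the expression table was made on Rnor_6.0). The lines below give, 5′ to 3′ on the gene's strand, 10 bases before and 20 bases from the annotated start, with the pyrimidine tract that begins exactly at the start in capitals. The first 6 are core genes of both subunits, chosen because they hold the tract, which many core genes such as Rpl41 and Rps12 do not at this start; the last 3, in lower case throughout, are the copies with the largest difference between the cell types, and no such tract stands at their start.
Rpl10 (chrX:157205840-157205869, + strand): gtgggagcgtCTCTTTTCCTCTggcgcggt
Rpl19 (chr10:83519054-83519083, + strand): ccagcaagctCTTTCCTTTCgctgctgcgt
Rpl31 (chr9:49143101-49143130, + strand): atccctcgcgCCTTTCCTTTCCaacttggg
Rplp0 (chr12:46718371-46718400, - strand): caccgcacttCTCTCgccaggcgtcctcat
Rps7 (chr6:50999426-50999455, - strand): agagctgtgtCTCTTTCTaagccggcactc
Rps18 (chr20:4933735-4933764, + strand): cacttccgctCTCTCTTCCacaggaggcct
Rpl3l (chr10:14258436-14258465, + strand): ctggtgcctggtggggaggtcccttcctaa
Rps4y2 (chr4:183000903-183000932, + strand): cagctctcctcactcgcttgtgctctggga
Rpl30l1 (chr13:91813975-91814004, + strand): aggcaagaggatggtggctgcaaagaggac

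A C followed by at least 4 pyrimidines stood at the annotated start of 20 of the 67 genes, or 29.9%, and of 2.63% of 27457 rat promoters. With the tract allowed to begin within 20 bases of the start on the same strand, the shares were 79.1% and 48.0%, since such a short tract is frequent in these regions. Over the whole promoter window, 250 bases before to 50 after the start and on both strands, CCGGAAG, the letters bound by Ets factors such as GABP, was found in 29.9% of the ribosomal protein promoters and 9.22% of all. AAGATGGC, the core of the YY1 motif, was found in 11.9% and 3.44%, GGGCGG, the GC box of Sp1, in 55.2% and 34.9%, and the TATA box TATAAA in 13.4% and 14.3%. The reverse complement of CCGGAAG begins with pyrimidines and can overlap a TOP tract. These are matches of letters in the annotated windows only.

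Ribosomal protein mRNAs were among the most abundant in both cell types. The median row had 725 TPM in VSMCs against 229 TPM in mcPCs, against 12.7 and 3.59 TPM for the median row of the table. In VSMCs 70 of the 91 rows were in the highest 5% of all rows by TPM, and in mcPCs 72 were. Among the 100 most abundant rows, 14 were ribosomal protein rows in VSMCs and 24 in mcPCs. Together they made up 7.28% of all TPM in VSMCs and 2.20% in mcPCs.

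These shares were set against the erythrocyte transcripts named above. Without the erythrocyte list the ribosomal protein share was 7.33% in VSMCs and 4.82% in mcPCs. Leaving out the other haemoglobin rows as well brought it to 7.34% and 6.64%. In bulk samples of this kind, fewer cells of a type and less RNA per cell cannot be told apart.

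The highest levels were seen for short transcripts. Rps29, a zinc-binding protein of the small subunit, was the highest of all with 3587 TPM in VSMCs and 1207 in mcPCs. A second row of the same symbol had 2382 and 899 TPM. Rpl41, which codes for the smallest ribosomal protein, had 2447 and 1053 TPM. Rpl21 had 2700 and 567 TPM, and Rps21, a protein of the small subunit, had 2012 and 567 TPM. Rpl37, a zinc-binding protein of the large subunit, had 1991 and 610 TPM, and Rps27, a zinc-binding protein of the small subunit, had 1811 and 595 TPM. These levels are per effective length, the stretch of a transcript from which a fragment can start, and that stretch was short in several of these rows.

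The effective length was 102 bases for the first Rps29 row, 31.2 bases for the second and 59.5 bases for Rps21. Its median over the 91 rows was 357 bases, and 1946 bases over the table. In 15 rows it was under 200 bases, and in 6 over 1000 bases. Rpl7, a protein of the large subunit, stood at the other end, with 4944 bases. It had 150 TPM in VSMCs from 30439 reads per sample, whereas the second Rps29 row had 2382 TPM from 3028 reads. Over the 91 rows, log2 TPM in VSMCs and log2 effective length had a Pearson's r of -0.29 and a Spearman's rho of -0.41, a description across genes in which length also enters TPM itself.

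**Figure D1:**
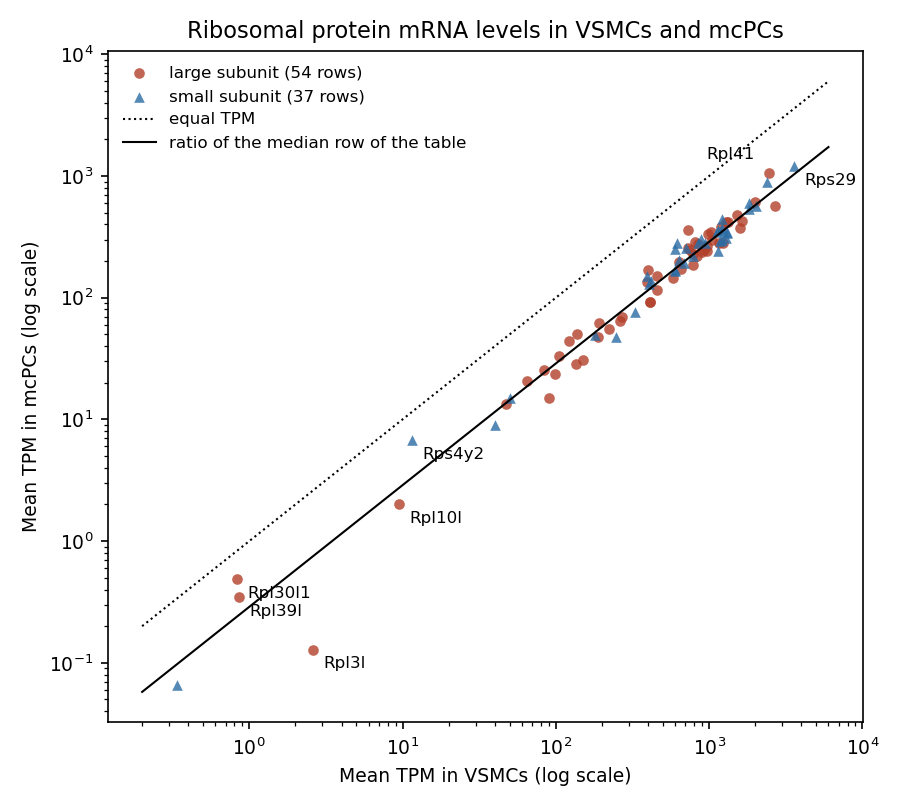
Mean TPM of the 91 ribosomal protein rows in VSMCs (x axis) and mcPCs (y axis), both on log scales, by subunit of the symbol. The dotted line marks equal TPM and the solid line the ratio of the median row of the table, a log2 ratio of -1.79; the rows lie along the solid line, with Rpl3l below it and Rps4y2 above it.

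The order of the rows was much alike in the 2 cell types. Over the 91 rows, log2 TPM in VSMCs and mcPCs correlated with Pearson's r = 0.987 and Spearman's rho = 0.968, against 0.815 and 0.835 over all 14607 rows. These correlations are across genes, which share libraries, lengths and the annotation, and are given as a description. Because several rows have few reads, the values were taken again for the 86 rows with at least 100 reads per sample in each cell type, and were 0.981 and 0.962.

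The question behind the comparison was how far arteriolar and capillary mural cells differ in their transcriptomes, and here whether ribosomal protein mRNAs took part in that difference. Ratios are log2 of the mean normalized counts of mcPCs over VSMCs, so that a positive value is higher in mcPCs. The normalization by DESeq2 centres on the bulk of the genes, and the median over the table was 0.01. The median of the 91 ribosomal protein rows was 0.04, with quartiles of -0.22 and 0.20, while the quartiles of all rows were -0.54 and 0.82. The standard deviation across rows was 0.44 for the ribosomal proteins and 1.85 for the table.

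Of the 91 rows, 83 (91.2%) were within 1.5-fold of equality, against 46.4% of all rows. The ratio was within 0.25 of 0 in 56 rows. It was positive in 48 and negative in 43 rows. The median was -0.01 for the rows named for the large subunit and 0.05 for those of the small one.

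At least a 2-fold difference, taken here as the threshold in place of a test, was seen in 3 of the 91 rows. Rps4y2 and Rpl30l1 were higher in mcPCs, as were 22.0% of all rows, and Rpl3l was higher in VSMCs, as were 13.9% of all rows. Among the rows at least as abundant as the median ribosomal protein row by mean normalized counts, 48.1% were 2-fold apart in one direction or the other. All 3 rows are paralogues or copies, and none of the 78 rows of core genes reached 2-fold on this scale.

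**Figure D2:**
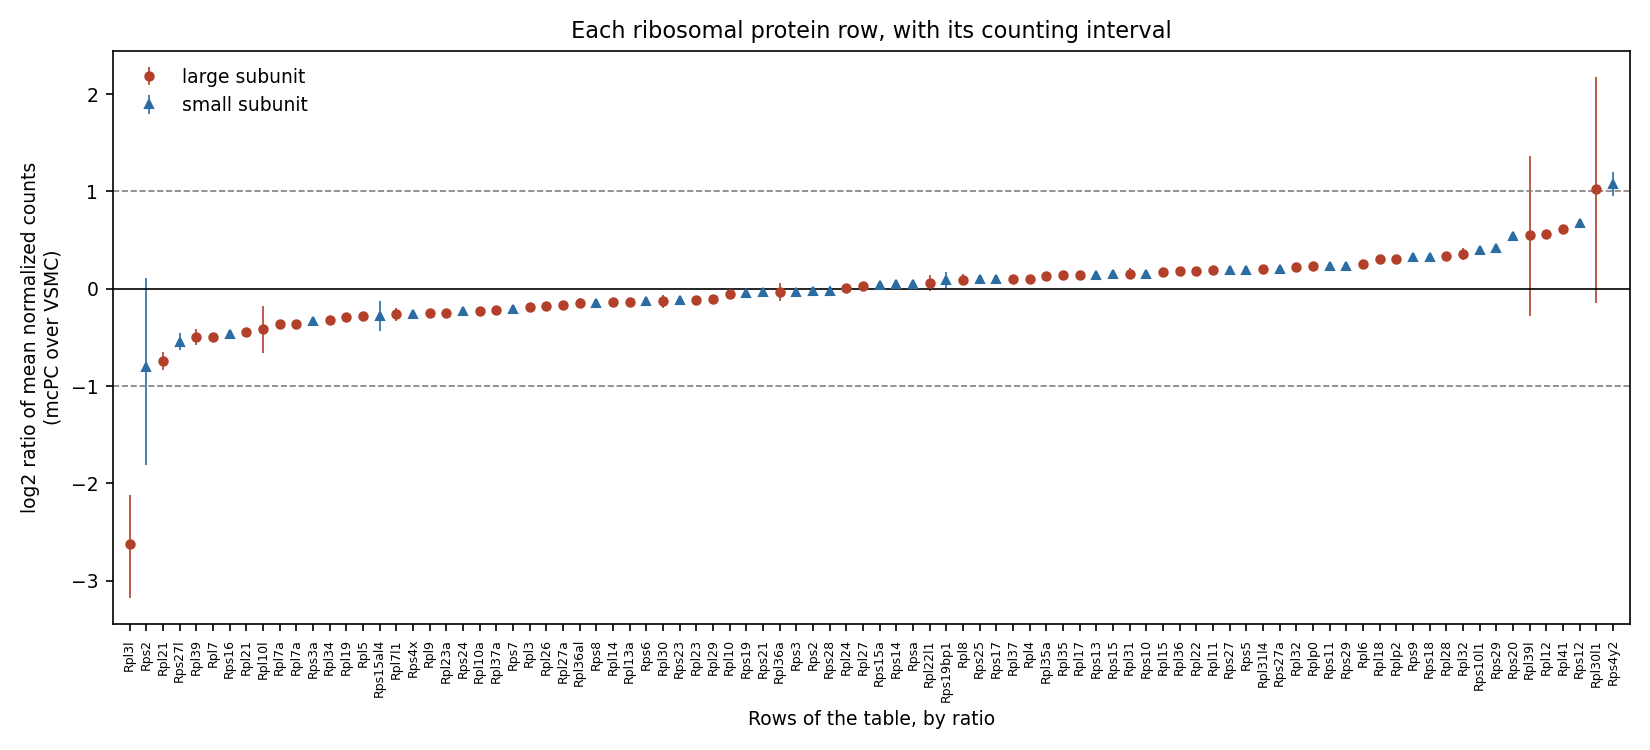
The log2 ratio of mean normalized counts, mcPC over VSMC, of 90 of the 91 rows in rising order, by subunit. Bars are 95% intervals that cover the counting error of the summed reads only and not the spread between samples, and dashed lines mark 2-fold; Rpl3l lies below the lower line, and Rpl30l1 and Rps4y2 lie above the upper one.

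Rpl3l, a paralogue of Rpl3 known from striated muscle and the heart, had 2.59 TPM in VSMCs against 0.129 TPM in mcPCs. Its log2 ratio was -2.63, with a counting interval of -3.18 to -2.12. This rested on 120 reads per VSMC sample and 11.3 per mcPC sample. Rpl3 itself, which builds part of the peptidyl transferase region, had 839 and 220 TPM and a ratio of -0.19. The paralogue was thus a minor transcript beside Rpl3 in both cell types.

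Rps4y2, a copy related to Rps4x, had 11.5 TPM in VSMCs against 6.78 TPM in mcPCs. Its ratio was 1.08, with a counting interval that began at 0.95, from 335 and 366 reads per sample. Rps4x, the X-linked gene of the same protein, had 1288 and 312 TPM and a ratio of -0.26. Rpl30l1 had 0.827 and 0.490 TPM, and its ratio of 1.03 had a counting interval of -0.15 to 2.18, since only 4.19 and 5.25 reads per sample were assigned to it. Both copies were lower in mcPCs on TPM as it stands, at -0.76 and -0.75, as were all 91 rows. Reads of near-identical copies can be split or moved between them by the estimation of abundances, so values of such copies can be uncertain. Summed over the 3 samples, the estimated reads were whole numbers for Rps4y2 (1006 and 1099) and fractions for Rpl30l1 (12.6 and 15.8). How reads were divided between copies was not tested.

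The other paralogues stayed under 2-fold. Rps27l, a copy of Rps27 known as a target of p53, had 249 and 47.5 TPM and a ratio of -0.54. Rpl22l1, the paralogue of Rpl22, had 83.9 and 25.4 TPM and a ratio of 0.06, and Rpl22 had 0.19. Rpl36al, a retrocopy of Rpl36a, had 270 and 69.8 TPM and a ratio of -0.15. The row named Rpl36a had 47.2 and 13.3 TPM, but with a copy described as its pseudogene the rows for that protein summed to 1074 and 291 TPM.

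Rpl7l1, a relative of Rpl7 that takes part in building the large subunit, had 98.2 and 23.5 TPM and a ratio of -0.26. Rpl10l and Rpl39l, copies of Rpl10 and Rpl39 known from the male germ line, were low. Rpl10l had 9.41 and 2.02 TPM with a ratio of -0.41, and Rpl39l had 0.856 and 0.346 TPM with a ratio of 0.56 and a counting interval of -0.28 to 1.37. Of the remaining copies, Rpl31l4 (754 and 248 TPM, ratio 0.20) and Rps10l1 (395 and 149 TPM, ratio 0.40) were as abundant as core genes, and Rps15al4 had 40.1 and 8.99 TPM with a ratio of -0.28. Rps19bp1, the binding partner of Rps19, had 50.2 and 14.9 TPM and a ratio of 0.09.

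High ratios among the core genes included that of Rps12, a protein of the small subunit, at 0.67 with 616 TPM in VSMCs and 282 in mcPCs. Rpl41 was at 0.61. Rpl12, which forms the base of the stalk that recruits translation factors, was at 0.56 with 397 and 170 TPM, and Rps20, of the small subunit, was at 0.54 with 596 and 251 TPM. All 4 were under 2-fold, on counts well above those of the low copies, with 2761 reads per mcPC sample for Rps20 as the fewest. With all rows described as the same protein summed, Rps12 and Rpl41 stayed at 0.67 and 0.61, while Rpl12 came to 0.31 and Rps20 to 0.28.

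The lowest ratios among the core genes were those of a second Rps2 row (ENSRNOG00000059428) at -0.80 and a second Rpl21 row (ENSRNOG00000032803) at -0.74. The Rps2 row had 0.339 and 0.0657 TPM, or 12.5 and 4.65 reads per sample, and its counting interval ran from -1.81 to 0.11. The first Rps2 row, with 786 and 219 TPM, had a ratio of -0.02. The second Rpl21 row had 90.1 and 14.9 TPM, and the abundant Rpl21 row had a ratio of -0.45. Rpl39, Rpl7 and Rps16 followed at -0.50, -0.49 and -0.46. Summed over the rows of the same protein, Rpl39 was at -0.17, and Rpl7 and Rps16 were at -0.49 and -0.46. Here 5 symbols have more than 1 row, and 4 rows hold the same values as another row within 0.1%, both rows of Rpl7a and the rows of Rpl8 and Rplp2 with a copy outside the rule.

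Some members have further roles. Rplp0 and Rplp2, the acidic proteins of the stalk that binds elongation factors, had ratios of 0.23 and 0.31 and 990 and 807 TPM in VSMCs. Rpsa, the small-subunit protein also known as a laminin receptor, had 937 and 280 TPM and a ratio of 0.05. Rps6, which the S6 kinases phosphorylate, had 180 and 49.3 TPM and a ratio of -0.13 in the row of that name. Most of its signal lay in an S6-like row, and both together had 908 and 298 TPM and a ratio of 0.18. Rps27a, made as a fusion with ubiquitin, had 845 and 280 TPM and a ratio of 0.20. Rpl10, one of the last proteins to join the large subunit, had 962 and 267 TPM and a ratio of -0.05.

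The symbol rule misses part of the ribosome. Rpl13, Rpl38, Rplp1 and Rps26 have no row of their own name but appear under uncharacterised or "like" names, and some core proteins, such as Fau and Rack1, have other symbols. The rows were therefore summed by the protein that their descriptions name, a step chosen after the table had been seen. The 12 paralogue or copy rows within the rule and Rps19bp1 were kept apart, whereas predicted copies outside the rule were included. Rpl31l4, with 754 and 248 TPM, thus stood beside 441 and 157 TPM for the summed L31 rows. Rps10l1, with 395 and 149 TPM, stood beside 406 and 131 TPM for S10. All 80 core proteins were then present, from 155 rows, with more than 1 row for 43 of them. The median protein had 1026 TPM in VSMCs against 306 TPM in mcPCs, with quartiles of 761 and 1319 TPM in VSMCs and 214 and 416 TPM in mcPCs.

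Per protein, the median log2 ratio of normalized counts was 0.06, with quartiles of -0.14 and 0.22. The ratio was within 1.5-fold of equality for 76 of the 80 proteins, and within 0.25 of 0 for 54. Fau, which codes for S30 fused to a ubiquitin-like protein, had 852 and 267 TPM and a ratio of 0.14, and Rack1, a scaffold on the small subunit, had 509 and 156 TPM and a ratio of 0.09. Rpl7 was the lowest at -0.49.

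**Figure D3:**
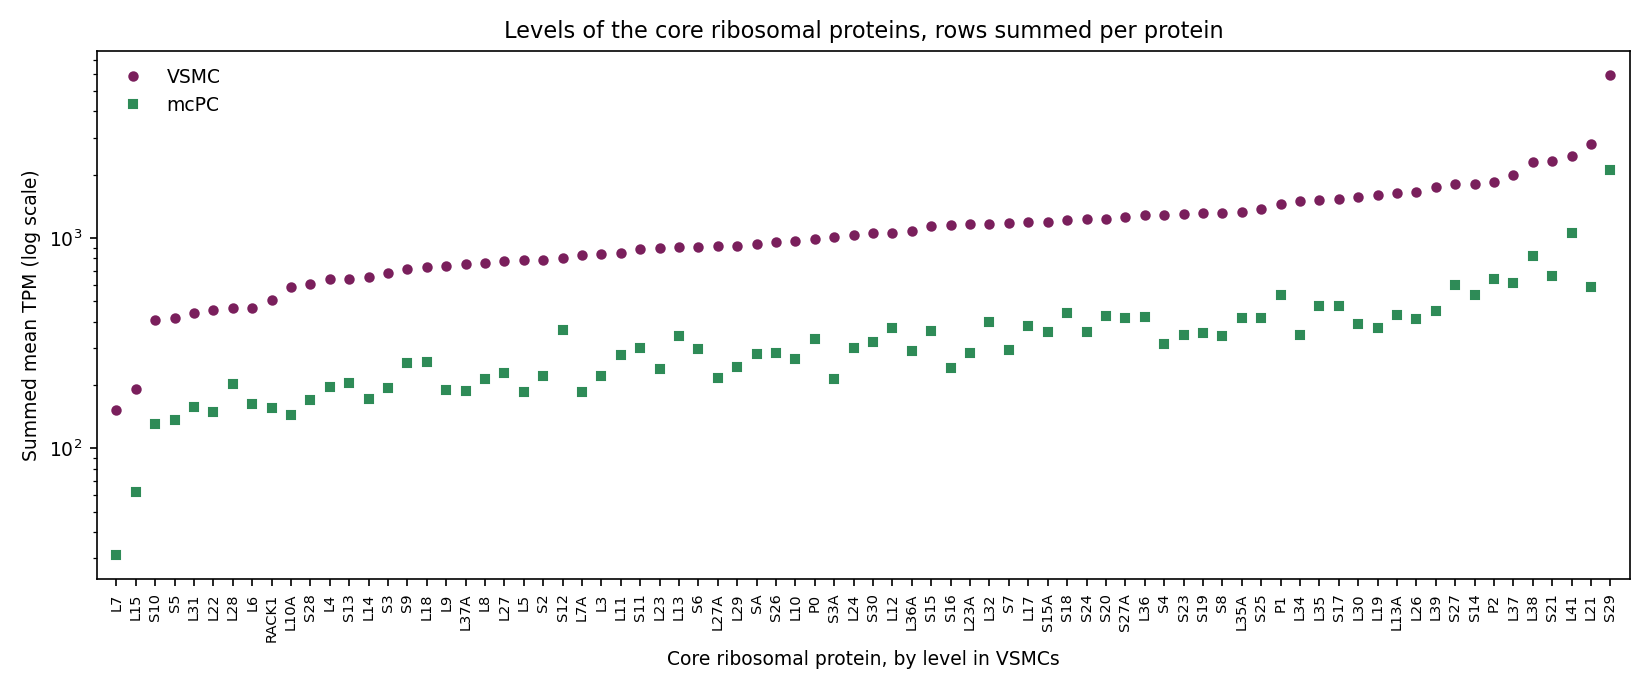
Summed mean TPM (log scale) of 78 of the 80 core ribosomal proteins in VSMCs (circles) and mcPCs (squares), ordered by the VSMC level. S29 is the highest and L7 the lowest in both cell types, and the medians over all 80 are 1026 and 306 TPM.

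Other parts of the translation machinery are given beside the 35.9% of all rows that were at least 2-fold apart in one direction or the other. These lists, like the members, were chosen with earlier results known, and a member of a list may lie in another. Of 36 initiation factor rows, 3 were at least 2-fold higher in VSMCs and none in mcPCs, with a median ratio of -0.28. Eif1, which takes part in choosing the start codon, had 897 and 161 TPM and a ratio of -0.66, the eIF3 subunit gene Eif3k had 0.26, and Pabpc1, which binds poly(A) tails, had 0.45. Of 14 elongation and termination factors, 3 were higher in VSMCs and 1 in mcPCs, with a median of -0.25. Eef1a1, which carries aminoacyl-tRNA to the ribosome, had 3350 and 696 TPM and a ratio of -0.48, Eif5a had -1.49, and Eef2, which moves the ribosome along the mRNA, had -0.23.

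Of 49 ribosome assembly factors, 1 was higher in each direction, with a median of -0.20. Npm1 had a ratio of 0.05, Ncl, which codes for nucleolin, -0.47 and Dkc1, a pseudouridine synthase, 0.21. Of 13 genes for RNA polymerase I and its transcription of ribosomal RNA, 1 was higher in VSMCs, the polymerase subunit gene Znrd1 at -2.21 with 384 and 23.4 TPM. The median of that list was -0.11, Ubtf had -0.27 and Polr1d -0.05. Of 20 genes for mTORC1 and the control of TOP mRNAs, 2 were higher in each cell type, with a median of -0.30. The 3 most abundant were Cnbp (-0.21), Max (-1.20) and Rheb, the GTPase that activates mTORC1 (-0.93).

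Among 18 further genes known for TOP mRNAs, which include Eef1a1 above, the median was -0.06. Of these, 2 passed 2-fold towards mcPCs, among them Tpt1, which codes for translationally controlled tumour protein, at 1.34 with 2434 and 1714 TPM. Vim, the vimentin gene of the mesenchymal cytoskeleton, was higher in VSMCs at -2.81 with 3356 and 137 TPM. Within the ribosomal protein genes with a RefSeq promoter, the median ratio was 0.09 for the 20 genes with the tract at the start and -0.03 for the other 47. Those 47 include Rps19bp1 and copies such as Rpl3l and Rps4y2, with ratios from -2.63 to 1.08. Of all 67 genes, 53 had a tract within 20 bases of the start. The difference was not tested.

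Mitochondrial ribosomal proteins, which build the separate ribosome of mitochondria, and proteasome subunits were taken as other large complexes. The 75 mitochondrial ribosomal protein rows had a median ratio of -0.14 with quartiles of -0.40 and 0.00, and 1 was at least 2-fold higher in VSMCs. The 39 proteasome rows had a median of -0.20 with quartiles of -0.44 and 0.05, and 4 were past 2-fold, beside 35.9% of all rows. Narrow spreads were thus seen in these complexes too, with standard deviations of 0.30 and 0.83 beside the 0.44 of the cytosolic ribosomal proteins. The difference between the families was not tested. The medians of the mitochondrial family were 32.0 TPM in VSMCs and 8.41 TPM in mcPCs, far below the 725 and 229 TPM of the cytosolic one.

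**Figure D4:**
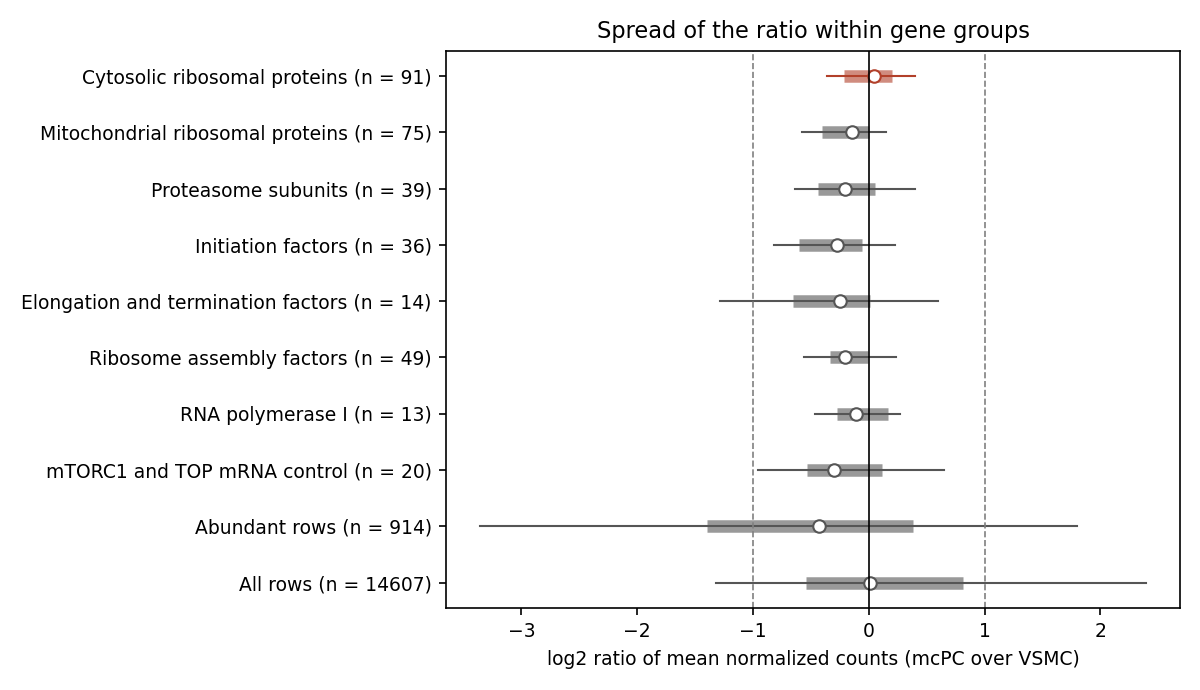
The log2 ratio of mean normalized counts (mcPC over VSMC) within gene groups: circles are medians, thick bars run between the quartiles and thin lines from the 10th to the 90th percentile of the rows. Abundant rows are the 914 at or above the median ribosomal protein row by mean normalized counts; their quartile bar, from -1.40 to 0.38, is far wider than that of the 91 cytosolic ribosomal protein rows, from -0.22 to 0.20.

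The side of equality on which the family lay was set by the scale. On TPM as it stands, 89 of the 91 rows were at least 2-fold higher in VSMCs, with a median log2 ratio of -1.76. This holds of the table as a whole, since 74.8% of all rows were at least 2-fold higher in VSMCs on that scale and their median was -1.79. With counts scaled to the same total, the medians were -0.54 for the ribosomal protein rows and -0.55 for all rows. With counts scaled without the erythrocyte list they were 0.02 and 0.00, and without the other haemoglobin rows as well 0.20 and 0.19. On each of these scales the family's median lay close to that of all rows.

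**Figure D5:**
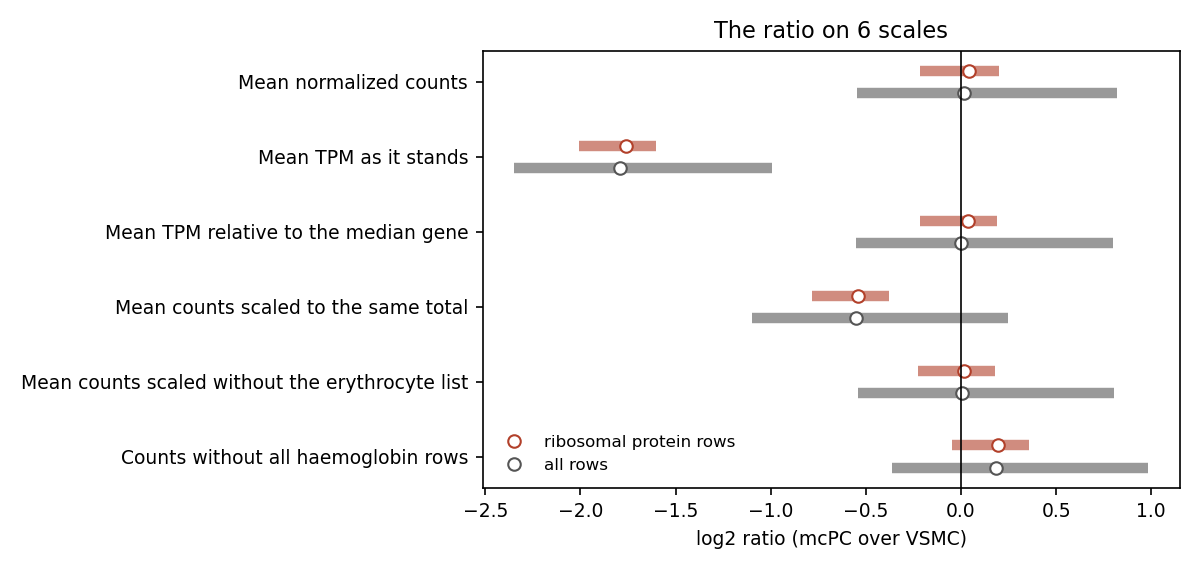
Median (circles) and quartiles (bars) of the log2 ratio, mcPC over VSMC, on 6 scales, for the 91 ribosomal protein rows and all 14607 rows. Both medians move together from -1.76 and -1.79 on TPM as it stands to 0.20 and 0.19 on counts without all haemoglobin rows, and the bar of the ribosomal proteins is the narrower on every scale shown.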

How the data were processed

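Messenger RNA of 3 VSMC and 3 mcPC samples was sequenced from strand-specific poly(A) libraries. The authors trimmed and filtered reads with Eoulsan, estimated abundances with Salmon (version 0.8.0 in the submitters' processing notes) on Ensembl transcripts of the Rnor_6.0 build, brought these to gene level by tximport and normalized with DESeq2. Rows had to have 1 or more reads in all samples. The deposited table gives, as the authors' means per cell type, TPM, estimated counts, effective lengths, and normalized counts, which the authors deposited as a signal, counts divided by DESeq2 factors. Estimated counts are means per run: times 12 runs, 66.3% (VSMC) and 69.3% (mcPC) of values were whole within 0.002, so they were multiplied by 4 to give reads per sample. The table also holds the authors' own comparison (log2 fold changes, standard errors, p-values and adjusted p-values), which was not used.

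Ratios, shares and medians were computed with Python 3.11.15, pandas 2.3.3 and numpy 2.4.6, without a pseudocount, and checked on simulated data. The 95% intervals are binomial (Clopper-Pearson, scipy 1.17.1) on the reads over 3 samples and cover counting error only. With means alone, no test was made. RefSeq promoters (GRCr8) were matched by gene ID.

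The members and gene lists were chosen with earlier results of these data known, and the abundant-row background and promoter motifs after the table had been seen. Named were the 5 highest in TPM, the 5 highest and 5 lowest ratios, all rows past 2-fold, all paralogues, Rplp0, Rplp1, Rplp2, Rpsa, Rps6, Rps27a, Rpl10, the 3 most abundant genes of each list, and Fau and Rack1; some genes that this rule names are not reported here. Other genes are named for context, after their values were seen. Alternatives were the scale, a pseudocount, filters, the core list, the threshold and sums per protein.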

Additional observations from a re-analysis of the deposited data

How the results depend on the processing

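Of the 91 ribosomal protein rows, 3 were at least 2-fold apart with a median log2 ratio of 0.04. On TPM as it stands the values were 89 rows and -1.76, and with counts scaled to the same total 6 rows and -0.54. Chosen after seeing the data, scaling without all haemoglobin rows gave a median of 0.20. The core list alone, the rows with at least 100 reads per sample, and sums per protein (added later) gave 1 each, and a 1.5-fold threshold gave 8. Rps4y2 and Rpl30l1 changed direction on TPM as it stands, to -0.76 and -0.75. On TPM relative to the median gene, counts without the erythrocyte list, a pseudocount of 1 normalized count and a minimum of 0.8 TPM in VSMCs, the number was between 2 and 3.

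The share of TPM was 7.28% in VSMCs and 2.20% in mcPCs. It was 7.33% and 4.82% without the erythrocyte list, 7.32% and 2.24% for the core list, and 9.35% and 2.86% with the rows outside the rule. As a share of counts it was 1.71% and 1.15%. Added after seeing the data, it was 1.71% and 1.69% of counts without the erythrocyte list, and 7.34% and 6.64% of TPM without all haemoglobin rows, or 9.43% and 8.63% with the rows outside the rule.

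No paired analysis was possible because the table gives means per cell type and no values per sample; for the same reason no sample was left out in turn. Rows with few reads have wide counting intervals, as those of Rpl30l1, Rpl39l and the second Rps2 row.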

Other observations

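Besides the 91 rows, 75 rows describe a cytosolic ribosomal protein under another name, mostly predicted copies. Of these, 9 were at least 2-fold higher in mcPCs and 1 in VSMCs by mean normalized counts, beside 22.0% and 13.9% of all rows. Their median ratio was 0.09. The highest were LOC100363469, described as S24-like, at 4.03 with 12.1 TPM in VSMCs against 58.0 in mcPCs, and LOC100360619, described as L28-like, at 3.46 with 12.3 and 37.1 TPM. Both were also higher in mcPCs on TPM as it stands. The genes they resemble, Rps24 and Rpl28, had ratios of -0.23 and 0.34. The 1 row higher in VSMCs was LOC100362583, described as L13a-like, at -2.65 from 12.6 and 1.45 reads per sample. How reads were divided between these copies and the genes they resemble was not tested.

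Of the 9 rows for ribosomal S6 kinases, which the symbol rule leaves out, 3 were at least 2-fold higher in mcPCs and 1 in VSMCs. Over all rows the shares were 22.0% and 13.9%. Rps6ka1, a kinase of the p90 family, had 0.130 TPM in VSMCs against 7.25 in mcPCs and a ratio of 7.63. Rps6ka2 had 0.633 and 2.68 TPM and a ratio of 3.89. Rps6ka5 had 20.2 and 2.27 TPM and a ratio of -1.33. The kinases that act on Rps6 under mTORC1, Rps6kb1 and Rps6kb2, had ratios of -0.55 and 0.54. The third row higher in mcPCs, Rps6ka6, rested on 16.7 and 18 reads per sample. The leukocyte markers given above were also higher in mcPCs, and their part in these values was not tested.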
